A study of Homo sapiens with 16 samples.

Results

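The airway lining is covered by a fluid of secreted proteins that bind, starve or digest microbes and that hold the enzymes of inflammatory cells in check. The 9 genes described here are BPIFA1, BPIFB1, AGR2, AGR3, SLPI, PIGR, WFDC2, LTF and PLAC8. Most make secreted proteins of this kind or help to fold or carry them, and PLAC8 encodes a protein of the cell's interior. They were taken by symbol from the gene tables of 2 human cancer cell lines, PC9 from a lung cancer and MDA231 from a breast cancer, and they were chosen by their normalized read counts in these tables, with earlier results known. The PC9 table lists 7 of the 9 among 19454 gene rows, and AGR3 and LTF have no row of their own there. The MDA231 table lists 5 of the 9 among 17954 gene rows, without a row for BPIFA1, BPIFB1, AGR3 or PIGR. The gene with the fewest reads in either table had 15 reads summed over its 8 libraries, and no value is given here for a gene without a row. Of the listed genes, 6 in PC9 and 3 in MDA231 had a mean normalized read count of at least 10 and entered the test across all genes. PIGR in PC9 and WFDC2 and LTF in MDA231 fell short of that mean and are given by their reads.

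Each line was sampled in 4 groups of 2 libraries. The parental group carried no hairpin. The LeptoM cells, a derivative of the line that forms metastases in the leptomeninges (the membranes that enclose the cerebrospinal fluid), carried by lentivirus a control hairpin (shCTL) or 1 of 2 independent hairpins against LCN2 (shLCN2_1 and shLCN2_2). All were cancer cells grown in dishes and lysed for polyadenylated RNA, with no airway tissue and no host cells. LCN2 makes lipocalin-2, itself a secreted defense protein that binds the iron carriers of bacteria, and the study asked what these cells do with it. A LeptoM library with shCTL differs from a parental one both in being LeptoM and in carrying a hairpin, and the labels do not say whether a derivative is a single clone. Separate cultures behind the 2 libraries of a group are not stated either. The p-values therefore rest on library-to-library spread that may be technical only.

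Secretory (club and goblet) cells and the submucosal glands make most of these proteins in a healthy airway. BPIFA1 and BPIFB1 belong to the BPI fold family of lipid-binding proteins. SLPI and WFDC2 are small proteins with the WAP four-disulfide core, and SLPI blocks neutrophil elastase. AGR2 and AGR3 are protein disulfide isomerases of the endoplasmic reticulum, where AGR2 is needed for folding mucins. PIGR carries dimeric IgA across the epithelium, LTF is the iron-binding protein lactoferrin, and PLAC8 is a small cysteine-rich protein that is found inside the cell.

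Several of the genes are neighbours in the genome (GENCODE 29 positions, GRCh38). BPIFA1 lies at chr20:33235995-33243311 on the plus strand and BPIFB1 at chr20:33273480-33309878 on the same strand, 30.2 kb apart with no protein-coding gene between them. AGR2 (chr7:16791811-16833433) and AGR3 (chr7:16859405-16881987), both on the minus strand, are 26.0 kb apart, again with none between. SLPI (chr20:45252239-45254564, minus strand) and WFDC2 (chr20:45469706-45481532, plus strand) lie 215 kb apart with 8 protein-coding genes between them. PIGR is at chr1:206928518-206946466, LTF at chr3:46435645-46485234 and PLAC8 at chr4:83090048-83137075, all on the minus strand. The promoters of BPIFA1, BPIFB1 and AGR2 are printed because BPIFA1 and BPIFB1 are the neighbouring pair whose levels parted under shLCN2_1, and because AGR2 was far higher in LeptoM shCTL than in parental cells of both lines. Each is the 250 bases before the gene's start in RefSeq (GRCh38.p14), written along the gene's strand: chr20:33235746-33235995 (plus) for BPIFA1, chr20:33282964-33283213 (plus) for BPIFB1 and chr7:16805000-16805249 (minus) for AGR2. The BPIFB1 and AGR2 starts of RefSeq fall inside the GENCODE gene spans. Capitals mark matches to the motifs searched.
BPIFA1: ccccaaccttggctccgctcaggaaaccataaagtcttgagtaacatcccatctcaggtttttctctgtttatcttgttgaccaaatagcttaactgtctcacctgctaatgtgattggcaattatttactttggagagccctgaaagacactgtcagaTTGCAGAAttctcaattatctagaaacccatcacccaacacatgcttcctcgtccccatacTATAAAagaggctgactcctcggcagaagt
BPIFB1: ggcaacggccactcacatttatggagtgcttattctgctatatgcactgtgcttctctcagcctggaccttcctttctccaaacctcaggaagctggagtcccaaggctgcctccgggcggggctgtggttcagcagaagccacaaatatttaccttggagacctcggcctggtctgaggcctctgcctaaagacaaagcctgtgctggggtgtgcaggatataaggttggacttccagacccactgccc
AGR2: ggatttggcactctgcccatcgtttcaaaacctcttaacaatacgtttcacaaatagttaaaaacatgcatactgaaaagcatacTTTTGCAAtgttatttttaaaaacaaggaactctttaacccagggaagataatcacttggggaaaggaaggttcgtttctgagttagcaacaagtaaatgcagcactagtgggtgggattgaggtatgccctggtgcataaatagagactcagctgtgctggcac
Both strands were searched for 6 motifs. TATAAA is the TATA box, which places the start of transcription in some promoters. The letters TGTTTAC stand for the forkhead factors, which include the airway factor FOXA1, though their sites vary and other forms were not searched. The AP-1 factors, which respond to stress and growth signals, are represented by TGANTCA. For the C/EBP family, which acts in secretory epithelium, the search used TTGCNNAA. For the factors of the ETS family the search used CCGGAAG, which need not match the site of every member, and the last motif was that of NF-kB. No match overlapped another in the printed windows. The BPIFA1 promoter held the TATA box letters on the gene's strand at 30 to 25 bases before the start and the C/EBP motif at 91 to 84 bases before it. The AGR2 promoter held the C/EBP motif on the opposite strand at 165 to 158 bases before its start, and no searched letters were found in the BPIFB1 window. Among 35116 RefSeq promoters of the same length, the TATA box was found in 10.7%, the C/EBP motif in 9.05%, the forkhead motif in 2.98%, AP-1 in 6.57%, ETS in 8.52% and the NF-kB motif in 9.96%. Promoters of 8 of the 9 genes matched the RefSeq table. Among the promoters not printed, AGR3 held the TATA box letters and PLAC8 held the C/EBP motif, and PIGR, WFDC2 and LTF held none of the 6. A match describes the letters and is not a binding site, and a window without a match may still hold a site in other letters.

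Reads assigned to genes came to 36.8 M to 51.8 M per library in PC9 and to 41.8 M to 49.1 M in the MDA231 LeptoM libraries, but to 11.6 M in each MDA231 parental library, so depth and group cannot be told apart in that comparison. In PC9 the mean normalized LCN2 count was 22194 in parental, 50309.7 in shCTL, 5311 in shLCN2_1 (3575 and 7046 in its libraries) and 20138 in shLCN2_2. Both hairpins lowered LCN2 there (log2 difference -3.33, limma adjusted p = 0.000167, and -1.32, adjusted p = 0.0111). In MDA231, LCN2 had only 4, 45, 19 and 13 reads summed over the libraries of parental, shCTL, shLCN2_1 and shLCN2_2, and its mean was too low for the test. The shLCN2_1 libraries of PC9 stood apart: genes of high GC content were low in both (Spearman correlation across genes of GC with the deviation -0.545 and -0.638), and they differed most from each other among the PC9 pairs. PC9 expressed epithelial keratins, EPCAM and CDH1 but hardly the lung marker NKX2-1 (0 to 5.35). MDA231 expressed VIM and almost no CDH1 (0 to 6.99).

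In PC9, 4 of the 6 tested genes were higher in LeptoM shCTL than in parental cells (BPIFA1, BPIFB1, AGR2 and SLPI) and WFDC2 and PLAC8 were lower. Under an LCN2 hairpin BPIFA1 and WFDC2 rose with both hairpins, BPIFB1 rose with shLCN2_2, and AGR2, SLPI and, near the read floor, PLAC8 passed the test with shLCN2_1. The comparison of shCTL with parental cells is a description, since it was in view when the genes were picked: 6 of 6 passed an adjusted p of 0.05, 4 higher and 2 lower, where 45.6% of all 15650 genes tested did (23.8% higher and 21.8% lower). BPIFA1, 1 of the 6, entered the test only through the hairpin groups. Its means of 1.67 in parental and 8.14 in shCTL were both under 10. The 6 became 5 with a pseudocount of 5, with edgeR or with DESeq2. For shLCN2_1 against shCTL 5 of 6 passed as higher and none as lower, where 44.2% of all genes were called (18.8% rose and 25.3% fell). The 5 became 1 without shCTL replicate 1, 2 without shCTL replicate 2, and 3 with the GC trend removed or with only the 2 groups in the fit. PLAC8, 1 of the 5, entered the test only through its high parental level, and its means in both groups compared were under 10. Of all calls in that comparison 42.6% were higher, and 56.0% with upper-quartile scaling or 52.9% with edgeR's TMM scaling. For shLCN2_2 against shCTL 3 of 6 rose and none fell, where 19.5% were called (9.81% rose and 9.7% fell). Between the hairpins (shLCN2_1 against shLCN2_2) 1 of 6 was higher and 2 were lower, where 54.5% of all genes were called (25.6% higher and 28.9% lower). The median log2 difference over the 6 genes was 1.47, 0.69, 0.86 and -0.07 in these comparisons, in that order, beside 0.01, 0.03, -0.00 and 0.02 over all genes tested. The 3 comparisons with shCTL share its 2 libraries, so their values are set side by side and not counted as repeats of each other.

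**Figure D1:**
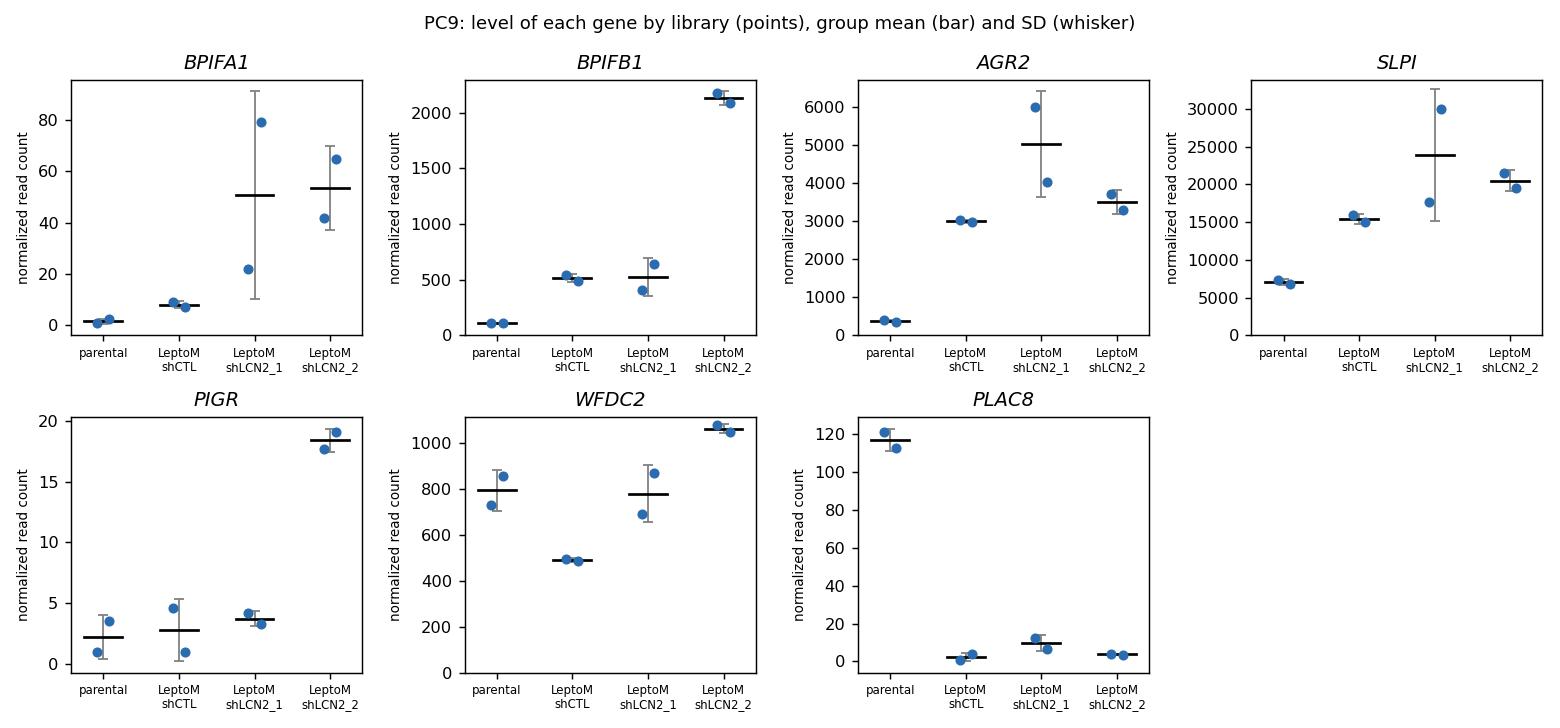
Normalized read count (vertical axis, each panel with its own scale) of the 7 listed genes in the 8 PC9 libraries by group; points are libraries, bars are means and whiskers are SD (n = 2). BPIFB1 and PIGR stand highest in shLCN2_2, while PLAC8 stands highest in parental cells.

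BPIFB1, which makes a long BPI fold protein of airway mucus, separated the 2 hairpins. Its normalized counts were 107 and 106 in parental, 539.5 and 489 in shCTL, 405 and 642 in shLCN2_1, and 2176 and 2089.5 in shLCN2_2. Parental cells were lowest and shLCN2_2 highest, with no overlap, while shCTL and shLCN2_1 overlapped. The log2 difference of shCTL from parental was 2.26 (SE 0.19). shLCN2_2 was 2.05 above shCTL on the log2 scale (SE 0.19, adjusted p = 0.00111). shLCN2_1 differed from shCTL by -0.01 (SE 0.19, adjusted p = 0.969), and from shLCN2_2 by -2.06 (adjusted p = 8.49e-05). The difference of shLCN2_2 from either of the other LeptoM groups kept its call under every alternative setting run, between 1.98 and 2.12 against shCTL. The near-zero difference under shLCN2_1 hid a disagreement of its libraries: without replicate 1 it was 0.32 (adjusted p = 0.0302) and without replicate 2 it was -0.34 (adjusted p = 0.0237).

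BPIFA1, the short BPI fold protein of the upper airway, had few reads. Its values were 0.992 and 2.35 in parental, 9.18 and 7.11 in shCTL, 22.0 and 79.3 in shLCN2_1, and 41.8 and 64.9 in shLCN2_2. The parental values were at or under the worth of 3 reads, the floor used here, and the hairpin groups lay above shCTL and overlapped each other. By reads, shCTL had 17 against 3 in parental, a ratio per depth of 5.08 (95% counting interval 1.47 to 27.1). shLCN2_1 had 93 reads and was 6.10 times shCTL (3.61 to 10.9), and shLCN2_2 had 127 reads and was 6.46 times shCTL (3.88 to 11.4). On the log2(value + 1) scale, which understates changes of low genes, BPIFA1 rose by 2.24 with shLCN2_1 (SE 0.59, adjusted p = 0.0159) and by 2.55 with shLCN2_2 (SE 0.59, adjusted p = 0.0212). The hairpins differed by -0.31 (adjusted p = 0.688). Neither call held in every fit that left out 1 library. The shLCN2_1 call was lost without shCTL replicate 1 or 2 (log2 difference 2.41 or 2.08) and without its own replicate 2 (1.34). The shLCN2_2 call was lost without shCTL replicate 1 or 2 (2.71 or 2.38) and without its own replicate 1 or 2 (2.86 or 2.24). Fits without an shCTL or shLCN2_2 library also called fewer of all genes, so those losses are not particular to BPIFA1. So the neighbouring genes BPIFA1 and BPIFB1 were both above shCTL under shLCN2_2, and under shLCN2_1 BPIFA1 was above it and BPIFB1 was not called.

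WFDC2, a WAP protein also known as the tumour marker HE4, rose with both hairpins. Its normalized counts were 730.3 and 856 in parental, 495 and 484 in shCTL, 690.2 and 867 in shLCN2_1, and 1075 and 1047 in shLCN2_2. shCTL was lowest and shLCN2_2 highest, and the parental and shLCN2_1 libraries overlapped. shCTL was 0.69 below parental on the log2 scale (difference -0.69, SE 0.13). WFDC2 rose by 0.66 with shLCN2_1 (SE 0.13, adjusted p = 0.00375) and by 1.11 with shLCN2_2 (SE 0.13, adjusted p = 0.00192). Both calls held under every alternative run, with log2 differences of 0.49 to 0.82 and of 1.08 to 1.14. Between the hairpins the log2 difference of shLCN2_1 from shLCN2_2 was -0.46 (adjusted p = 0.0158), a call lost without shLCN2_2 replicate 1 (0.0836) or 2 (0.0685).

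SLPI, the secretory leukocyte protease inhibitor, was the most abundant of the group per transcript length. Its normalized counts were 7375 and 6820.3 in parental, 15933 and 14958 in shCTL, 17727 and 30047 in shLCN2_1, and 21470.1 and 19498 in shLCN2_2. Each LeptoM library was above both parental ones and each hairpin library above both shCTL ones, with shLCN2_1 spread so widely that it enclosed shLCN2_2. The log2 difference of shCTL from parental was 1.12 (SE 0.20). Against shCTL, SLPI rose by 0.58 with shLCN2_1 (SE 0.20, adjusted p = 0.0468), and the difference with shLCN2_2 was 0.41 (SE 0.20, adjusted p = 0.196). The shLCN2_1 call was lost in 9 of 19 alternatives. Without shLCN2_1 replicate 2 the difference was 0.20 (adjusted p = 0.0648), and leaving out another library gave 0.0730 or 0.0727 for parental replicate 1 or 2, 0.130 or 0.176 for shCTL replicate 1 or 2, and 0.0716 for either shLCN2_2 replicate. The shLCN2_2 difference passed without shLCN2_1 replicate 1 (adjusted p = 0.00207) or 2 (0.00210). The 2 hairpins differed by 0.17 (adjusted p = 0.495), or by 0.55 (adjusted p = 0.000473) without shLCN2_1 replicate 1 and by -0.21 (adjusted p = 0.0508) without its replicate 2.

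AGR2, the mucin-folding disulfide isomerase, was many times higher in every LeptoM library than in parental cells. Its normalized counts were 394 and 353 in parental, 3026 and 2965 in shCTL, 6002 and 4029.8 in shLCN2_1, and 3715 and 3278 in shLCN2_2. No groups overlapped, and the order from low to high was parental, shCTL, shLCN2_2 and shLCN2_1. shCTL was 3.0 above parental on the log2 scale (SE 0.17). AGR2 rose by a further 0.72 with shLCN2_1 (SE 0.17, adjusted p = 0.00908), and the difference with shLCN2_2 was 0.22 (SE 0.17, adjusted p = 0.392). shLCN2_1 was above shLCN2_2 by 0.49 (SE 0.17, adjusted p = 0.0340). AGR2 transcripts have a low GC content of 41.5%, and with the trend over GC removed within each library the shLCN2_1 differences were 0.49 from shCTL (adjusted p = 0.0603) and 0.20 from shLCN2_2 (adjusted p = 0.369). The call against shCTL was also lost without shCTL replicate 1 (0.0518) or 2 (0.0543), and that between the hairpins without either shCTL (0.0571 for both) or shLCN2_2 replicate (0.0662 and 0.177) or shLCN2_1 replicate 1 (0.0996).

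PLAC8 ran the other way in PC9. It had normalized counts of 121 and 113 in parental, 0.918 and 4.06 in shCTL, 12.6 and 6.61 in shLCN2_1, and 4.02 and 3.46 in shLCN2_2. Parental libraries were far above every LeptoM library, and shCTL and shLCN2_2 were near the floor of 3 reads. The parental libraries had 218 reads against 5 in shCTL, a ratio per depth of 48.6 (95% counting interval 20.5 to 151), and the log2(value + 1) difference was -5.24 (SE 0.52). shLCN2_1 had 18 reads and was 4.01 times shCTL (1.44 to 13.8), and shLCN2_2 had 9 reads and was 1.56 times shCTL (0.468 to 5.91). On the log2(value + 1) scale the difference of shLCN2_1 from shCTL was 1.71 (SE 0.52, adjusted p = 0.0286), between means of 9.60 and 2.49 that both lie under the minimum of 10. It did not pass with the GC trend removed (0.0724) or with only the 2 groups in the fit (0.109), and neither did it without shCTL replicate 1 (1.01, adjusted p = 0.173) or shLCN2_1 replicate 1 (1.29, adjusted p = 0.112), or with reads thinned to equal depth (0.0528). The shLCN2_2 difference was 0.60 (SE 0.52, adjusted p = 0.456).

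PIGR, the receptor that ferries IgA, was near the detection limit in 3 groups and had no fit. Its values were 0.992 and 3.52 in parental, 4.59 and 1.02 in shCTL, 4.20 and 3.30 in shLCN2_1, and 17.7 and 19.1 in shLCN2_2. The first 3 groups overlapped and shLCN2_2 stood clear of them. By reads, shLCN2_2 had 44 against 6 in shCTL, a ratio per depth of 6.34 (95% counting interval 2.69 to 18.2), and shLCN2_1 had 7, a ratio of 1.30 (0.374 to 4.68). shLCN2_2 was 4.88 times shLCN2_1 (2.18 to 12.8), and parental and shCTL were both at or under the floor, so no ratio is given for them. These intervals cover counting error only.

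**Figure D2:**
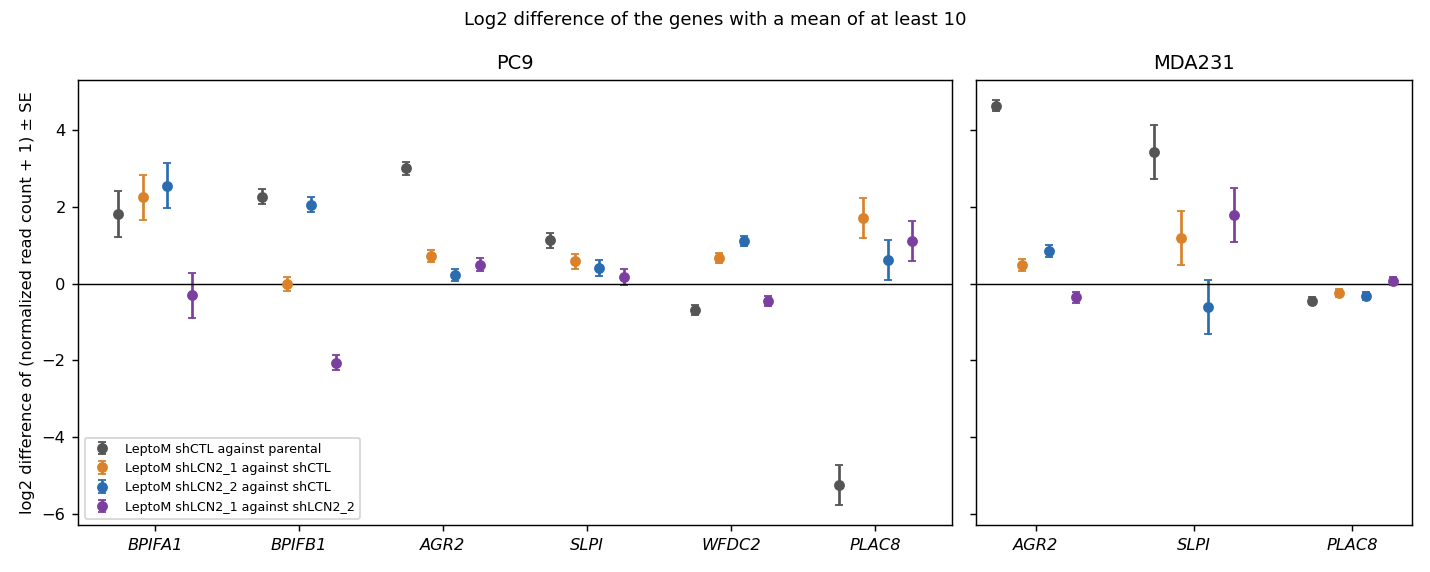
Log2 difference of (normalized read count + 1) with its SE (vertical axis) for each gene with a mean of at least 10, in PC9 (left) and MDA231 (right), by comparison (colour). BPIFB1 in PC9 separates the hairpins (2.05 against -0.01), and AGR2 is higher in LeptoM shCTL than in parental cells in both lines (3.0 and 4.64).

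The genes differed greatly in level, compared per kilobase of exon. In PC9 shCTL the mean normalized count per kilobase was 25916 for SLPI, 1053 for AGR2, 354 for WFDC2, 166 for BPIFB1, 7.53 for BPIFA1, 0.647 for PLAC8 and 0.640 for PIGR. In parental PC9 WFDC2 (574 per kilobase) was above AGR2 (131 per kilobase). In shLCN2_2 BPIFB1 reached 688 per kilobase, next to WFDC2 at 768. In MDA231 shCTL the order was PLAC8 (597 per kilobase), AGR2 (84.6), SLPI (38.2), WFDC2 (5.25) and LTF (1.04).

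In MDA231, AGR2 and SLPI were higher in LeptoM shCTL than in parental cells and PLAC8 was lower. These 3 of 3 tested genes passed the threshold where 48.7% of all 14387 genes tested did (24.8% higher and 23.8% lower), again as a description only. No gene of the group passed in a comparison that involved an LCN2 hairpin. The count was 0 of 3 for shLCN2_1 against shCTL, where 0.841% of all genes were called (0.389% rose and 0.452% fell). It was 0 of 3 for shLCN2_2 against shCTL, where 0.521% were called (0.139% rose and 0.382% fell). Between the hairpins it was 0 of 3, where 2.69% were called (1.52% higher and 1.17% lower). By limma each of these comparisons had 2 of 3 genes at an unadjusted p under 0.05. edgeR's quasi-likelihood test and DESeq2 each called 0, 1 and 0, the 1 being AGR2. The median log2 difference over the 3 genes was 3.44, 0.48, -0.32 and 0.07, beside 0.04, 0.00, -0.00 and 0.00 over all genes tested.

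**Figure D3:**
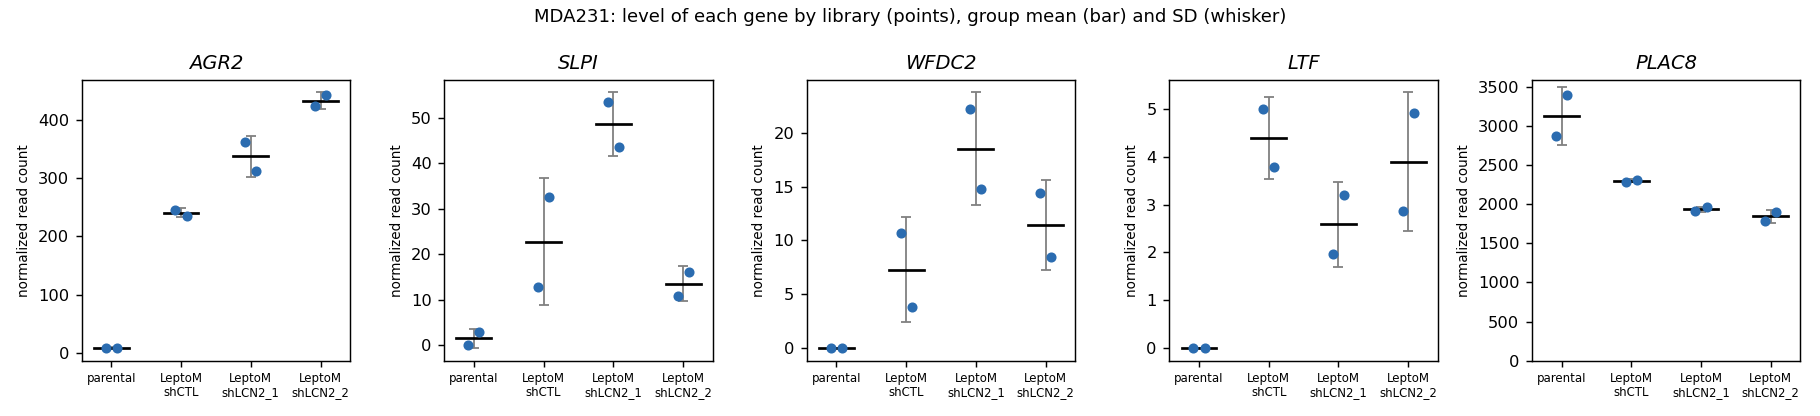
Normalized read count (vertical axis, each panel with its own scale) of the 5 listed genes in the 8 MDA231 libraries by group; points are libraries, bars are means and whiskers are SD (n = 2). AGR2 runs from 3 reads in each parental library up to shLCN2_2, and PLAC8 is highest in parental cells.

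AGR2 in MDA231 had normalized counts of 8.51 and 8.94 in parental (3 reads in each library), 246 and 235 in shCTL, 363 and 313 in shLCN2_1, and 424 and 444 in shLCN2_2. The groups did not overlap, and each hairpin group was above shCTL. By reads, shCTL had 654 against 6 in parental, a ratio per depth of 27.6 (95% counting interval 12.6 to 75.5), and the log2(value + 1) difference was 4.64 (SE 0.15). Against shCTL the log2 difference was 0.48 with shLCN2_1 (SE 0.15, adjusted p = 0.218) and 0.85 with shLCN2_2 (SE 0.15, adjusted p = 0.0676). The shLCN2_2 difference passed the threshold with edgeR (adjusted p = 0.0291), with DESeq2 (0.00167), with the GC trend removed (0.00577), with only the compared groups in the fit (0.0213) and without parental replicate 1 (0.0294) or 2 (0.0303). With the GC trend removed the shLCN2_1 difference was 0.58 (adjusted p = 0.0323).

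SLPI, abundant in PC9, was scarce in MDA231. Its normalized counts were 0 and 2.98 in parental, 12.9 and 32.6 in shCTL, 53.6 and 43.7 in shLCN2_1, and 10.8 and 16.2 in shLCN2_2. Parental cells were lowest, shLCN2_1 was highest, and shCTL and shLCN2_2 overlapped. shCTL had 61 reads and parental 1, a ratio per depth of 15.5 (95% counting interval 2.67 to 620.3). The log2(value + 1) difference of shLCN2_1 from shCTL was 1.19 (SE 0.70, adjusted p = 0.497) and that of shLCN2_2 was -0.60 (SE 0.70, adjusted p = 0.667). The hairpins differed by 1.80 (SE 0.70, adjusted p = 0.262), with 150 reads against 38. Without shCTL replicate 2 the shLCN2_2 difference changed sign to 0.04.

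WFDC2 in MDA231 had values of 0 and 0 in parental, 10.7 and 3.79 in shCTL, 22.2 and 14.8 in shLCN2_1, and 14.4 and 8.45 in shLCN2_2. A count of 0 in a parental library allows a value of up to 8.51 or 8.94. Against that floor shLCN2_1 was at least 2.12-fold higher and shLCN2_2 at least 1.31-fold higher, while the shCTL mean of 7.26 lay under it. By reads shLCN2_1 was 2.51 times shCTL (95% counting interval 1.48 to 4.41) and shLCN2_2 1.55 times (0.857 to 2.85).

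LTF, lactoferrin, had 12, 8 and 11 reads in shCTL, shLCN2_1 and shLCN2_2 and 0 in parental cells. Its values were 0 and 0 in parental, 5.01 and 3.79 in shCTL, 1.96 and 3.21 in shLCN2_1, and 2.87 and 4.93 in shLCN2_2. No difference was detectable at this depth, since every LeptoM mean lay under the parental floor and the ratios to shCTL were 0.587 (95% counting interval 0.208 to 1.56) and 0.886 (0.354 to 2.19).

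PLAC8 was the highest of the group in MDA231. Its normalized counts were 2870.2 and 3396 in parental, 2286 and 2312 in shCTL, 1915 and 1961 in shLCN2_1, and 1788 and 1907 in shLCN2_2. The 4 groups did not overlap, with parental highest. shCTL was below parental by a log2 difference of -0.44 (SE 0.10), or -0.21 with the GC trend removed. PLAC8 transcripts have a low GC content of 40.9%. The Spearman correlation across genes of GC with the deviation was -0.286 and -0.595 in the parental libraries and 0.297 and -0.331 in shCTL. The differences from shCTL were -0.25 with shLCN2_1 (SE 0.10, adjusted p = 0.337) and -0.32 with shLCN2_2 (SE 0.10, adjusted p = 0.256). PLAC8 was thus below parental in LeptoM shCTL of both lines, at a mean of 2.49 in PC9 and of 2299 in MDA231, where the tables were normalized separately.

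Other genes of airway secretory defense were counted from a list of 38 chosen with earlier results known, of which 16 were tested in PC9; LCN2 is one of them. In PC9 shCTL against parental 8 were higher and 1 was lower (median log2 difference 1.02), beside 23.8% of all genes higher and 21.8% lower. MUC5B, a gel-forming mucin of the airway, went from a mean of 16.9 to 1620.4 (log2 difference 6.71, SE 0.46, adjusted p = 2.53e-05). SERPINB3, a serine protease inhibitor, went from 2.26 to 121 (5.34), and DEFB1, a constitutive defensin, from 56.4 to 352 (2.63). Both parental libraries were at or under the floor of 3 reads for SERPINB3. SERPINA3, another protease inhibitor, was lower, 8.96 against 139.9 in parental (-3.94). With shLCN2_1 none of the 16 rose and 4 fell (median -0.57), LCN2 itself and CST3 among them. Over the alternative settings between 2 and 11 fell, and 25.3% of all genes fell in this comparison. MUC5B fell there from 1620.4 to 366 (log2 difference -2.21, adjusted p = 0.00572) and TFF1, a trefoil peptide of mucus, from 393 to 226 (-0.79, adjusted p = 0.00699). Both calls were lost with the GC trend removed (MUC5B -0.92, adjusted p = 0.137, and TFF1 -0.39, adjusted p = 0.104), and that of TFF1 also without shCTL replicate 1 (0.0618).

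With shLCN2_2, 5 of the 16 rose and 1, LCN2, fell (median log2 difference 0.53), where 9.81% of all genes rose and 9.7% fell. Over the alternative settings between 1 and 8 of the list rose. CST3, cystatin C, rose from 2889 to 5914 (log2 difference 1.04, SE 0.11, adjusted p = 0.00157), and MSMB, a secreted microseminoprotein, from 45.7 to 165 (1.84, adjusted p = 0.00826). The MSMB call was lost without any 1 of the 4 libraries compared, with log2 differences of 1.58 to 2.09. Those fits called far fewer of all genes as well. Set against shLCN2_2, shLCN2_1 had none of the 16 higher and 9 lower (median -1.22), where 25.6% of all genes were higher and 28.9% lower. MUC5B was lower by a log2 difference of -2.63 (adjusted p = 0.00183, or 0.0692 with the GC trend removed) and CST3 by -1.52 (adjusted p = 5.89e-05).

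**Figure D4:**
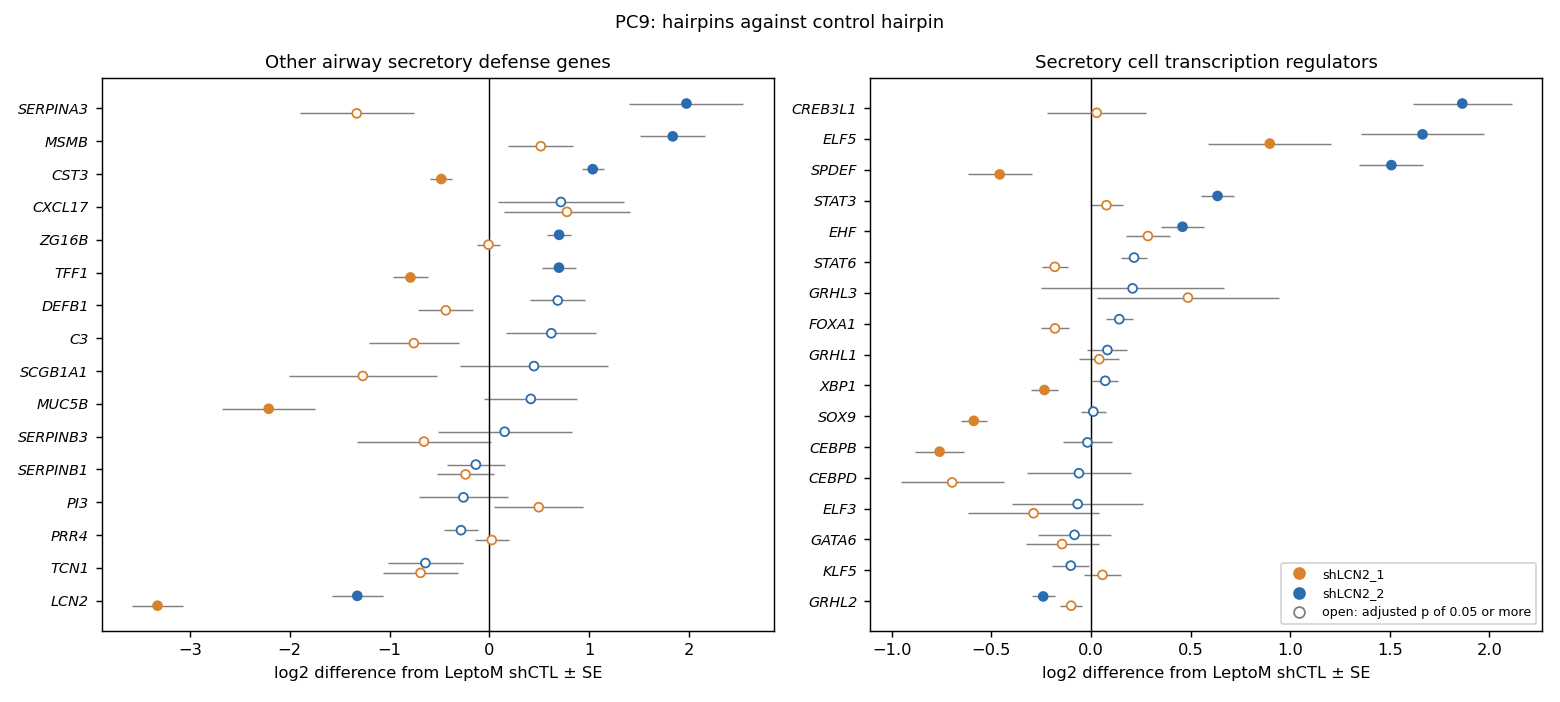
Log2 difference from LeptoM shCTL with its SE (horizontal axis) in PC9 for the tested genes of the other airway defense list (left) and of the transcription regulator list (right), for shLCN2_1 (orange) and shLCN2_2 (blue); filled points have an adjusted p under 0.05. SPDEF and CST3 lie to the right under shLCN2_2 (1.51 and 1.04) and MUC5B to the left under shLCN2_1 (-2.21).

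Transcription regulators of secretory cells, 24 in the list and 17 tested in PC9, were mostly higher in shCTL than in parental cells: 12 were higher and 2 lower (median log2 difference 0.64), beside 23.8% of all genes higher and 21.8% lower. ELF3 (2.17), KLF5 (1.65), SPDEF (1.49), the goblet cell factor, and GRHL1 (1.36) had the largest of these differences among genes with a mean of at least 50 in a group, in log2 units. With shLCN2_1, 1 rose and 4 fell, and 0 to 5 rose and 2 to 7 fell over the alternative settings, beside 18.8% of all genes rising and 25.3% falling. CEBPB, a C/EBP factor, fell from 3536 to 2102 (log2 difference -0.76, adjusted p = 0.00157), but with the GC trend removed it was higher by 0.69 (adjusted p = 0.0196). SOX9 fell from 3987 to 2651 (-0.59, adjusted p = 0.000261). With shLCN2_2, 5 rose (3 to 8 over the alternatives) and 1 fell, beside 9.81% and 9.7% of all genes. SPDEF rose from 188 to 536 (1.51, adjusted p = 0.00157) and CREB3L1, which acts in secretory pathway expansion, from 81.2 to 298 (1.86, adjusted p = 0.00326). Between the hairpins none of the 17 was higher in shLCN2_1 and 8 were lower, where 25.6% of all genes were higher and 28.9% lower. The difference of SPDEF was -1.97 (adjusted p = 6.32e-05) and that of CREB3L1 -1.84 (adjusted p = 0.000477).

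The protein disulfide isomerases other than AGR2 and AGR3, 20 in the list and 17 tested in PC9, ran mostly opposite to AGR2 in shCTL against parental: 2 were higher and 10 lower (median log2 difference -0.32), beside 23.8% of all genes higher and 21.8% lower. DNAJC10 was lower by -1.31, PDIA5 by -0.98, and ERP27 was higher by 1.25, all in log2 units. With shLCN2_1, 5 rose and 4 fell, a share near the 44.2% of all genes called, and 1 to 7 rose over the alternatives. TXNDC5 fell from 335 to 130 (-1.37, adjusted p = 0.000555). With shLCN2_2, 1 rose and 2 fell (0 to 7 fell over the alternatives), beside 9.81% of all genes rising and 9.7% falling. Between the hairpins 5 were higher and 4 lower in shLCN2_1, where 25.6% of all genes were higher and 28.9% lower.

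The smaller families had few tested genes in PC9. Of all genes, 23.8% were higher and 21.8% lower in shCTL than in parental. With shLCN2_1 18.8% rose and 25.3% fell, and with shLCN2_2 9.81% rose and 9.7% fell. Of the other BPI fold genes 2 were tested, and 1, PLTP, fell with shLCN2_1. Of the other WAP genes 2 were tested and none was called in any of the 4 comparisons, by limma at an unadjusted p under 0.05 either. Of the transferrin family and its receptors 4 were tested: 2 were lower in shCTL than in parental, 3 fell with shLCN2_1 (MFI2, LRP1 and TFR2, of which MFI2 changed sign from -1.44 to 0.14 with the GC trend removed), and with shLCN2_2 1 rose, LRP1 (from 1490.3 to 3060, log2 difference 1.04, adjusted p = 0.00163), and 1 fell, TFRC (-0.36). FCGRT, the neonatal Fc receptor and the 1 tested gene of the antibody transport list, was higher in shCTL than in parental and rose with both hairpins, from 15.1 to 53.2 with shLCN2_1 (log2 difference 1.77, adjusted p = 0.00250) and to 51.4 with shLCN2_2 (1.72, adjusted p = 0.00916). The shLCN2_2 call of FCGRT was lost without any 1 of the 4 libraries compared, with log2 differences of 1.52 to 1.92. Those fits called far fewer of all genes as well.

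In MDA231, 11 of the 38 other airway defense genes were tested, and 9 were higher in shCTL than in parental with none lower (median log2 difference 2.65), beside 24.8% of all genes higher and 23.8% lower. Over the alternatives 5 to 12 were higher. PI3, the elastase inhibitor elafin and a WAP protein like SLPI, went from 2.91 to 85.4 (log2 difference 4.45, SE 0.23, adjusted p = 3.74e-05), ZG16B from 34.8 to 282 (2.98), SERPINA1, the alpha-1 antitrypsin gene, from 27.6 to 178 (2.65), and the complement gene C3 from 3488 to 13013 (1.91). The parental PI3 values of 2.84 and 2.98 are the worth of 1 read each, under the floor of 3 reads. The size of the PI3 difference from parental is therefore uncertain. With shLCN2_1, PI3 alone of the 11 rose, from 85.4 to 320.2 (1.90, adjusted p = 0.0193), where 0.389% of all genes rose. Without 1 of the libraries compared its log2 difference was 1.69 to 2.11. With shLCN2_2, SERPINA1 alone of the 11 fell, from 178 to 65.8 (-1.42, adjusted p = 0.0243), where 0.382% of all genes fell. Without 1 of the libraries compared the SERPINA1 difference was -1.45 to -1.40. The SERPINA1 call was lost with the replicate block (adjusted p = 0.0635) and in thinned reads (0.0873). Both calls were lost without any 1 of the 6 LeptoM libraries. Such fits called few genes at all, so that loss is not particular to PI3 or SERPINA1. Of 16 tested regulators, 7 were higher and 1 was lower in shCTL than in parental, FOXA1 from 5.89 to 99.3 (4.02) and GATA6 from 213 to 648 (1.60), and none was called with either hairpin. Of 15 tested disulfide isomerases, 1 was higher and 5 were lower, ERP44 by -0.79, and P4HB was higher by 0.65 (adjusted p = 0.0132, or 0.0861 without shCTL replicate 1). PLTP, the 1 tested BPI fold gene, was higher by 4.06, and of 3 tested WAP genes 2 were higher, PI3 and KAL1 (1.98). Parental values of FOXA1 and PLTP were at or under the floor of 3 reads in each library. Of 3 tested transferrin family genes 2 were higher and 1 was lower, and both tested antibody transport genes were higher.

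Markers of club and goblet cells differed between the PC9 groups. They are also on the airway defense and regulator lists above, so their sums repeat those values and are not separate evidence. Of 6 such markers 3 are listed (MUC5B, SPDEF and SCGB1A1), and their summed normalized count was 72.4 to 101 in parental, 1834 to 1873 in shCTL, 421 to 622 in shLCN2_1 and 2652 to 2869 in shLCN2_2. SCGB1A1, the defining club cell gene, had means of 2.98, 45.3, 18.3 and 62.2 in these groups. Like BPIFB1, the summed markers were lowest in parental and highest in shLCN2_2, but they were lower in shLCN2_1 than in shCTL, where BPIFB1 overlapped. MUC5B made up most of the sum in LeptoM cells, and its fall with shLCN2_1 was not called with the GC trend removed. Of 6 ciliated cell markers 5 are listed, and their sums ran in the same order: 395 to 399 in parental, 1202 to 1285 in shCTL, 402 to 652 in shLCN2_1 and 2216 to 2229 in shLCN2_2. That order was carried by CAPS (means of 98.5, 940, 186 and 1710 from parental to shLCN2_2) and, at low values, TPPP3. RSPH1 (65.9, 119, 137 and 229) and FOXJ1 (2.17, 4.88, 12.7 and 18) were higher in shLCN2_1 than in shCTL, and DNAH5 was lowest in shCTL. Sums of alveolar type II and basal cell markers did not run in that order. In bulk RNA, fewer cells with a program and less RNA of it per cell cannot be told apart, and the part of these markers in the results above was not tested. SLPI and LTF are also neutrophil products. Of 8 neutrophil markers 5 are listed in PC9, with summed counts of 44.6 to 66.5 in parental, 117 to 146 in shCTL, 90.2 to 196 in shLCN2_1 and 139 to 151 in shLCN2_2, and 1 is listed in MDA231, PTPRC, at 0 to 8.36.

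Some genes followed the pattern of a member closely, as a description over 8 libraries that fall into 4 groups. In PC9 the 3 genes most alike to BPIFB1 were TMEM86A (Pearson r 0.999), SGSM1 (0.996) and BMP4 (0.996). TMEM86A had group means of 61.4, 236, 263 and 815 from parental to shLCN2_2. AGR2 was most alike to GDA (0.998), FZD4 (0.997) and ZBTB43 (0.996), and GDA went from 245 in parental to 5521 in shCTL, 10177 in shLCN2_1 and 6883 in shLCN2_2. SLPI was most alike to FAS (0.993), GSTM3 (0.992) and RAET1L (0.992), and WFDC2 to RIMS3 (0.978), PLEKHB1 (0.977) and TMOD2 (0.970). In MDA231 AGR2 was most alike to TIMP3 (0.998), ZG16B (0.998) and SRD5A1 (0.997), and PLAC8 to GTPBP8 (0.996), SNHG5 (0.995) and TMEM5 (0.993). None of these genes came up for AGR2 in both lines.

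The hairpin effects of the genes tested in both lines were also compared between the lines, a test added after the data were seen. For AGR2 the PC9 minus MDA231 difference was 0.23 with shLCN2_1 (SE 0.22, adjusted p = 0.417) and -0.63 with shLCN2_2 (SE 0.22, adjusted p = 0.117). For SLPI it was -0.61 (SE 0.73, adjusted p = 0.525) and 1.01 (SE 0.73, adjusted p = 0.487). For PLAC8 it was 1.95 with shLCN2_1 (SE 0.53, adjusted p = 0.0220), which rests on the 5 and 18 reads of shCTL and shLCN2_1 in PC9, and the difference with shLCN2_2 was 0.92 (SE 0.53, adjusted p = 0.373). Of all 13392 genes tested in both lines, 37.6% differed with shLCN2_1 and 5.87% with shLCN2_2.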

How the data were processed

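RNA sequencing of polyadenylated RNA was measured in 16 libraries, 8 per line. The signal values deposited by the authors are gene reads divided by a size factor of each library (normalized read counts). The submitters' processing notes name HTSeq 0.5.3, DESeq2 1.22.1 and hg19. The aligner, annotation and strand setting are not given in the sources used here. Whole reads were recovered from the steps of the values (100% whole within 0.001), so the floor of 3 reads and the 95% exact counting intervals could be computed; they cover counting error only. Lines that name no gene (4 in the PC9 table) were left out. They held 36.5% of reads in PC9 parental replicate 2 and 24.4% to 26.4% in the other PC9 libraries. Reads aligned to several places came to 42.4% of gene reads in that parental library and to 18.1% to 20.6% in the others. So 1 of the 2 PC9 parental libraries stood apart by this measure.

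Genes with a mean of at least 10 were tested on log2(value + 1) with limma 3.58.1 (R 4.3.3, trended prior), all 4 groups of a line in 1 fit, with Benjamini-Hochberg adjustment over all genes; called means an adjusted p under 0.05. The lines were fitted separately, on 15650 and 14387 genes. edgeR 4.0.16 and DESeq2 1.42.0 on the recovered reads, other pseudocounts, filters and scalings, thinning, removal of a GC trend, a replicate block and leaving out each library were alternatives. The test between lines was chosen after seeing the data. Scripts were tested on simulated data.

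The members and all lists (other airway defense genes, BPI fold, WAP, disulfide isomerase, transferrin, antibody transport, regulators and markers) were chosen with earlier results of these data known. Of each list, up to 4 called genes with the largest log2 difference, no overlap between the groups and a mean of 50 or more in a group could be named; genes named to account for a small count (CST3 and LCN2 under shLCN2_1, MFI2, TFR2, TFRC) were added after their values were seen. Gene positions come from GENCODE 29, promoters from RefSeq.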

Additional observations from a re-analysis of the deposited data

Results flagged for a closer look

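The difference of PLAC8 between shLCN2_1 and shCTL passed a test of the difference between the lines, on few reads in PC9. The log2 difference from shCTL was 1.71 in PC9, where PLAC8 had 5 reads in shCTL and 18 in shLCN2_1, and -0.25 in MDA231, where the group means were 2299 and 1938. PC9 minus MDA231 was 1.95 (SE 0.53, limma adjusted p = 0.0220, 2 libraries in each group), and 37.6% of all genes tested in both lines differed in this comparison. PLAC8 entered the PC9 test only through its parental mean of 116.9, since its means of 2.49 and 9.60 in these groups are under the minimum of 10, and its PC9 call was lost in 5 of 18 alternatives.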

How the results depend on the processing

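The replicate numbers did not meet the condition for pairing, a correlation of deviations over 0.1 in every pair of groups. Correlations were -0.0242 to 0.0831 in PC9. In MDA231 they were 0.364 to 0.445 among parental, shCTL and shLCN2_2 and -0.589 to -0.408 between shLCN2_1 and each of these. With the replicate block 6, 4, 3 and 3 members were called in PC9 (shCTL against parental, shLCN2_1 and shLCN2_2 against shCTL, and between the hairpins) and 3, 0, 0 and 0 in MDA231. WFDC2 with both hairpins and BPIFB1 in both shLCN2_2 comparisons kept their calls in every alternative. For shLCN2_1 against shCTL in PC9 the main count of 5 of 6 tested became 3 of 4 with a minimum mean of 50, which left out BPIFA1 and PLAC8. It became 3 of 6 with only the 2 groups compared in the fit and with the GC trend removed, and fell further without either shCTL library. For shLCN2_2 against shCTL in PC9 the count of 3 became 5 with only the 2 groups, and 2 to 4 without 1 library. Between the hairpins in PC9 it was 1 to 3 without 1 library, 1 being the count without either shLCN2_2 library, and 5 to 6 for shCTL against parental. In MDA231 the count for shCTL against parental of 3 of 3 tested became 5 of 5 with no filter, where WFDC2 and LTF entered. Both had 0 parental reads and shCTL means under the parental floor, so their calls are not read as differences. The count fell without either shCTL library. The MDA231 count of 0 for shLCN2_2 became 1 with only the 2 groups, edgeR, DESeq2 or the GC trend removed, and was 0 to 1 without 1 library. Between the hairpins it became 1 with only the 2 groups, and for shLCN2_1 it became 1 with the GC trend removed. Sign changes were as follows. BPIFB1 with shLCN2_1 in PC9 (-0.01) was 0.0868 with upper-quartile scaling, 0.0856 with edgeR, 0.0321 with DESeq2, 0.0605 with the GC trend removed, and -0.34 to 0.32 without 1 library. PLAC8 with shLCN2_2 in PC9 was -0.11 in thinned reads and -0.10 to 1.30 without 1 library. Between the hairpins in PC9, BPIFA1 was -1.21 to 0.60 and SLPI -0.21 to 0.55 without 1 library. SLPI with shLCN2_2 in MDA231 was -1.24 to 0.0369 without 1 library. With the GC trend removed, CEBPB was 0.69 and MFI2 0.14 with shLCN2_1 in PC9. Over all genes, the PC9 count for shLCN2_1 of 6910 became 3899 with the GC trend removed, that for shLCN2_2 of 3053 became 8075 with only the 2 groups, and that between the hairpins of 8529 became 5328 with the GC trend removed. In MDA231 the count for shCTL against parental of 7001 became 4382 with only the 2 groups. The shLCN2_1 count of 121 became 589 with only the 2 groups, 297 with edgeR, 488 with DESeq2, 1373 with the GC trend removed and 47 with the block. The shLCN2_2 count of 75 became 307, 188, 350, 1030 and 1 under these settings, and 42 in thinned reads. Between the hairpins, 387 became 687 with edgeR, 819 with DESeq2, 2650 with the GC trend removed and 178 with the block. The median over all genes for shLCN2_1 in PC9 was 0.03, and 0.13 with upper-quartile scaling. Without 1 library the counts over all genes were 0 to 674 for shLCN2_1, 0 to 366 for shLCN2_2 and 8 to 1225 between the hairpins in MDA231, 3486 to 9081 for its shCTL against parental, and 361 to 5469 for shLCN2_2 and 3866 or more for the other comparisons in PC9. The causes were not tested. Depth limits PIGR in PC9 and SLPI, WFDC2 and LTF in MDA231, and also the parental values of PI3, FOXA1 and PLTP in MDA231.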
